A study of Mus musculus with 168 samples.

Results

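The striatum of sham control mice was compared with the 6 other brain regions of the same group to describe which transcripts mark the striatum in the normal adult mouse brain. The comparison uses the arrays of the 0hr time group alone, 3 of striatum and 18 of the cerebral cortex, hippocampus, thalamus, midbrain, pons and medulla, and cerebellum (3 arrays each). The whole series holds the same 7 regions of 24 mice, in 8 groups. All mice were adult male C57BL/6 mice of 8 to 9 weeks with no genetic change. The 0hr mice were sham controls: they spent 3 hours in the exposure chambers in room air and returned to their home cages for 24 hours. The 7 other groups, of 3 mice each, breathed low oxygen for 1 hour (H1) or 3 hours (H3), or recovered in room air for 1, 3, 6, 12 or 24 hours after a 3-hour exposure (R1, R3, R6, R12 and R24), and they serve here only to ask whether a striatal difference was found again in other mice. RNA of each dissected region was measured on 1 Mouse Genome 430 2.0 array, and each value is a linear signal intensity of a probe set, a group of short probes for 1 transcript. The levels of 1 probe set are compared between arrays and never with those of another probe set.

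The striatum is the input station of the basal ganglia. Most of its neurons are GABAergic spiny projection neurons, which receive glutamatergic input from cortex and thalamus and dopamine from the midbrain. Neurons of the direct pathway carry the dopamine D1 receptor, which raises cyclic AMP through the G protein alpha subunit Gαolf and adenylyl cyclase 5, together with the peptides substance P and dynorphin. Neurons of the indirect pathway carry the D2 receptor, which lowers cyclic AMP, and enkephalin.

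Differences are given as striatum minus the mean of the other 6 regions on the scale log2(intensity + 16), which understates the ratio of dim transcripts, with the standard error and the Benjamini-Hochberg adjusted p of limma over 45037 probe sets. A transcript was called when the adjusted p was under 0.05 and the difference at least 2-fold, and it was placed above (or below) every other region when it also passed both limits against each of the 6 regions alone. By these limits 794 probe sets (1.76%) were higher and 322 (0.715%) lower in striatum than in the mean of the other regions. Above every other region were 198 probe sets (0.44%), and below every other region 10 (0.0222%). Of the 198, 160 name a single gene, and these are 106 genes. With each gene represented by its brightest probe set, 350 of 18193 genes were higher (1.92%), 187 lower (1.03%), 87 above every other region (0.478%) and 7 below every other region (0.0385%). The median log2 difference over all genes was -0.031. Without the striatum array of replicate 3, the number of probe sets below every other region was 20, and the numbers higher, lower and above every region were 848, 389 and 223.

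RNA of whole tissue was measured, so that a higher share of cells of a type and more RNA per cell cannot be told apart. The labelled tissue was checked first. The check used 9 defining markers of striatum. By the brightest probe set Ppp1r1b, Rgs9, Pde10a, Drd1, Drd2, Penk, Tac1 and Pdyn were each above every other region. Bcl11b, a zinc finger transcription factor of spiny projection neurons, was higher than the mean of the other regions. Its brightest probe set stood 0.82 (log2) above hippocampus, short of the 2-fold limit. Another Bcl11b probe set, averaging 698 in striatum and 104 elsewhere, stood 1.12 above hippocampus and was above every other region. The remaining ones, also called higher, stood 0.95 and 0.66 above hippocampus. The arrays of striatum correlated with each other at 0.969 to 0.976 over the 22518 brighter probe sets. Their correlations were 0.922 to 0.946 with cortex arrays, 0.922 to 0.942 with hippocampus and 0.897 to 0.921 with thalamus. Midbrain arrays gave 0.877 to 0.911, those of pons and medulla 0.865 to 0.897 and those of cerebellum 0.822 to 0.848.

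The 25 genes with the largest differences among those above every other region ran from 2.57 to 4.91, with standard errors of 0.06 to 0.18 and adjusted p values of 4.2e-13 to 4.4e-09, and the differences from the next-highest region were 1.25 to 4.19. On every one of the 3 striatum arrays each of these genes was above all 18 other arrays, which the naming rule required and which held for 1078 of all probe sets (2.39%). The next-highest region was cortex for 11 of the 25, pons and medulla for 4, hippocampus, thalamus and midbrain for 3 each, and cerebellum for 1. In 7 of the 25 every array of every other region was under an intensity of 50.

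**Figure D1:**
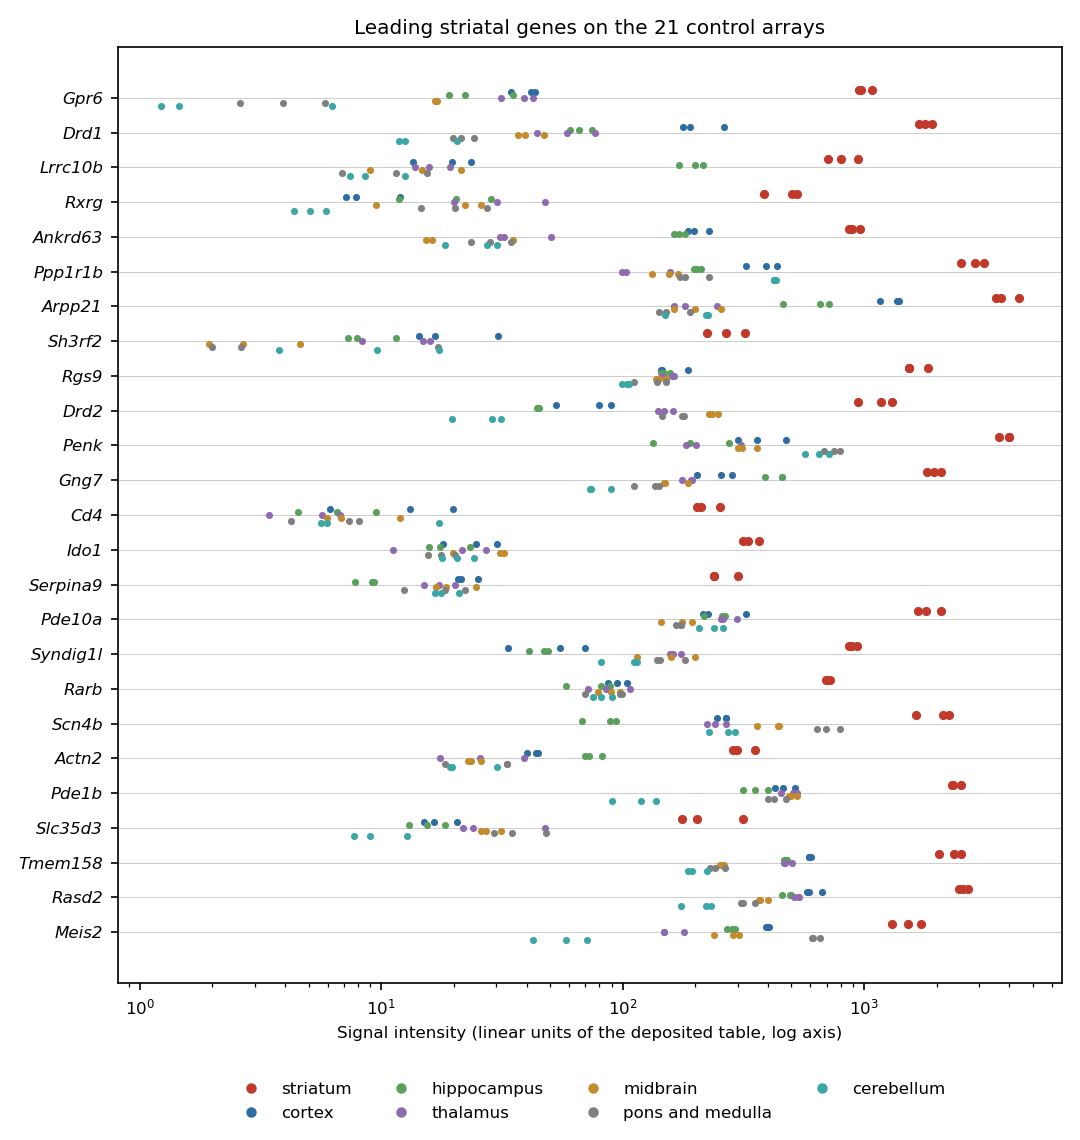
Signal intensity (log axis) of the 25 leading genes on the 21 arrays of sham control mice. Each point is 1 array and each colour 1 region, with striatum in red in the upper row of points for each gene. All 3 striatum points lie to the right of the 18 others for every gene shown, and Gpr6 runs from 952 to 1080 in striatum against at most 43.4 elsewhere.

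The receptors of this group were led by Gpr6, an orphan receptor that raises cyclic AMP and is known from neurons of the indirect pathway. Gpr6 gave 970, 1080 and 952 on the 3 striatum arrays, against a lowest, median and highest value of 1.22, 18.1 and 43.4 on the 18 others. The groups lay far apart, with a difference of 4.91 ± 0.11 (SE, adjusted p = 4.2e-13). Cortex was the next-highest region and averaged 39.9. Drd1, the D1 receptor, gave 1910, 1790 and 1690 in striatum against 11.9, 45.6 and 262 elsewhere. Its difference was 4.75 ± 0.11 (adjusted p = 4.9e-13), and the 262 came from cortex, where the mean of 210 was the highest outside striatum. A second Drd1 probe set gave a difference of 5.37. Drd2, the D2 receptor, gave 1310, 1180 and 944 in striatum against 19.7, 114 and 249 elsewhere (difference 3.39 ± 0.12, adjusted p = 2e-11). For Drd2 the next-highest region was the midbrain, with a mean of 237, where dopamine neurons carry this receptor as an autoreceptor. The other dopamine receptors measured were not called: Drd3 gave 20.2, 30 and 27.6 in striatum against a highest value of 24.2 elsewhere, and Drd4 gave 10.5, 30.4 and 46.1 against 30.3.

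Of each family of the cyclic AMP pathway a few members were higher in striatum and most were not called. Adcy5, the cyclase that serves D1 and D2 receptors in striatum, gave 2720, 2320 and 2610 in striatum against a lowest, median and highest value of 212, 487 and 668 elsewhere. All 3 striatum arrays were above the others and the difference was 2.45 ± 0.06 (adjusted p = 6.7e-13). Of the 9 adenylyl cyclases Adcy5 alone was called higher (11.1%, beside 1.92% of all genes). Adcy8, a calcium-stimulated cyclase, alone was called lower (11.1%, beside 1.03% of all genes). Adcy8 gave 23.8, 19.8 and 36.1 in striatum against 56.8, 111 and 195 elsewhere (difference -1.58 ± 0.10, adjusted p = 1e-08). The median over the 9 was -0.18, with Adcy1 at -0.50 and Adcy9 at 0.26. The probe sets of Adcy5 did not all tell the same: one more gave 2.04, and of 2 dim ones the first, averaging 24.2 in striatum and 36 elsewhere, gave -0.36 (adjusted p = 0.048) and the other -0.23 (adjusted p = 0.45).

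Of 24 subunits of heterotrimeric G proteins 3 were called by their brightest probe set, all higher (12.5%, beside 1.92% of all genes), and the list's median was -0.08. Another, dimmer probe set of Gng2 was called lower (-1.27, adjusted p = 0.00037). Gng7, the gamma subunit that pairs with Gαolf, gave 2090, 1950 and 1820 in striatum against 73, 181 and 458 elsewhere (difference 3.32 ± 0.10, adjusted p = 3.9e-12). Gnal, which encodes Gαolf, gave 1990, 1620 and 1840 against 330, 561 and 866 (difference 1.72 ± 0.08, adjusted p = 5.3e-10). Of 2 further Gnal probe sets 1 was called higher (1.63) and 1 was not called (0.09). Gnb5, the beta subunit that binds Rgs9, differed by 1.12 ± 0.05 (adjusted p = 5.8e-10) and was not 2-fold above cerebellum. A dimmer Gnb5 probe set was not called (0.45). Gnas, which encodes the related subunit Gαs, gave 2290, 2430 and 2610 in striatum against 2760, 3560 and 4080, so that every striatum array was below every other array. Its difference of -0.49 ± 0.06 (adjusted p = 2.7e-05) did not reach 2-fold. Gnal and Gnas, the 2 alpha subunits that stimulate cyclases, thus stood on opposite sides of the other regions.

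Among 17 RGS proteins, which speed the return of G proteins to rest, 5 were higher (29.4%, beside 1.92% of all genes) and 1 lower (1.03% of all genes were). Rgs9 gave 1850, 1540 and 1530 in striatum against 99.9, 145 and 186 elsewhere (difference 3.41 ± 0.09, adjusted p = 8.1e-13), and the means of the 6 other regions lay between 103 and 159. Of 2 dimmer Rgs9 probe sets 1 gave 2.34 and 1 was not called (0.29). Rgs20 and Rgs2 were also above every other region, with differences of 2.31 ± 0.17 and 1.62 ± 0.12. Rgs4 and Rgs14 were higher than the mean, but Rgs4 stood only 0.28 above cortex and Rgs14 was 0.19 below hippocampus, the region for whose CA2 neurons it is known. Rgs16 was lower, at 43, 24.7 and 53.5 in striatum against 46.2, 71.8 and 511 elsewhere, where the 511 is a thalamus array.

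Of 18 cyclic nucleotide phosphodiesterases, which break down cyclic AMP and cyclic GMP, 6 were higher (33.3%, beside 1.92% of all genes) and none lower, with a median of 0.11 over the list. Pde10a, an enzyme long known from striatal spiny neurons, gave 2090, 1810 and 1670 in striatum against 144, 222 and 323 (difference 2.98 ± 0.11, adjusted p = 3.9e-11). Pde1b, which calcium and calmodulin activate, gave 2530, 2320 and 2340 against 90.8, 441 and 530 (difference 2.68 ± 0.09, adjusted p = 1.1e-11). Pde7b followed at 2.19 ± 0.09 and was likewise above every other region. Pde2a at 1.94, Pde8b at 1.3 and Pde1c at 1.19 were called against the mean only, and Pde1c was 1.05 below cerebellum. None of 5 other Pde1c probe sets was called (-0.16 to 0.74), nor was the other of Pde8b (0.59). Of 2 further Pde2a probe sets 1 was called higher (2.38) and 1 was not called (0.43). The 12 phosphodiesterases that were not called ran from -0.81 for Pde5a to 0.74 for Pde1a, and another Pde5a probe set, averaging 11.5 in striatum and 71 elsewhere, was called lower at -1.19 (adjusted p = 3e-07).

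Ppp1r1b encodes DARPP-32, the phosphoprotein through which dopamine and cyclic AMP control protein phosphatase-1. It gave 3130, 2870 and 2530 in striatum, against a lowest, median and highest value of 99.9, 200 and 435 elsewhere. The difference was 3.58 ± 0.11 (adjusted p = 7.5e-12), and cerebellum, with a mean of 427, was the next-highest region. Arpp21, another substrate of the cyclic AMP-dependent kinase, gave 3700, 4390 and 3530 against 142, 223 and 1400, the 1400 from cortex (difference 3.53 ± 0.14, adjusted p = 6.6e-11). Of 4 further Arpp21 probe sets 1 gave 4.12 and 3 were not called (0.33, 0.33 and 0.49). Ptpn5, the striatal-enriched tyrosine phosphatase STEP, differed by 2.11 ± 0.10. Rasd2, which encodes the small GTPase Rhes, gave 2470, 2690 and 2560 against 175, 430 and 673 (difference 2.64 ± 0.07, adjusted p = 8.1e-13).

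Over the whole list of spiny projection neuron signalling genes, 25 of 30 were measured. Of these 23 were higher (92%, beside 1.92% of all genes), 18 were above every other region and none was lower, with a median of 2.45 against -0.031 over all genes. The list was drawn up from genes known for striatum and with earlier results of these data known. Its count therefore describes how the arrays represent these markers and is no test. The 2 members not called by their brightest probe set were Prkcb, a protein kinase C (2940, 3180 and 3030 in striatum, up to 3170 elsewhere), and Rasgrp2, a guanine nucleotide exchange factor, with 320, 196 and 173 in striatum and up to 219 elsewhere. Both had another probe set that was called higher: that of Rasgrp2 averaged 549 in striatum and 93.1 elsewhere (2.51, adjusted p = 1.4e-10) and was above every other region, and that of Prkcb averaged 1790 in striatum and 707 elsewhere (1.74, adjusted p = 9.2e-11). Summed over the 25 genes, intensities were 34200 to 37400 in striatum, against 11400 to 12000 in cortex, 8100 to 8630 in hippocampus and 4720 to 5060 in cerebellum, with the other 3 regions between 5900 and 8320.

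Peptides of both output pathways were high. Penk, the enkephalin precursor of the indirect pathway, gave 3620, 3970 and 3970 in striatum against 134, 335 and 799 elsewhere (difference 3.32 ± 0.16, adjusted p = 7e-10). Tac1, the substance P precursor of the direct pathway, gave 1960, 1580 and 1590 against 12.8, 436 and 807 (difference 2.46 ± 0.14, adjusted p = 3.4e-09). Pdyn, the dynorphin precursor, gave 182, 153 and 184 against 1.25, 22.6 and 54.7 (difference 2.34 ± 0.13, adjusted p = 2.5e-09). By the brightest probe set no striatum array overlapped the other regions for any of these 3 genes. A dim second Tac1 probe set, averaging 39.5 in striatum and 35 elsewhere, was not called (0.16). The precursors Pnoc and Pomc were not called, at -0.52 and -0.04. Tac2, the neurokinin B precursor, was called at 1.23 but stood 1.36 below thalamus. By the brightest probe set none of the receptors of these peptides was called. Oprk1, the kappa receptor for dynorphin, gave 139, 150 and 217 in striatum against up to 119 elsewhere and a difference of 0.98 ± 0.19 (adjusted p = 0.0011), and a second Oprk1 probe set, averaging 110 in striatum and 40.1 elsewhere, was called at 1.18 (adjusted p = 6e-06). Oprm1, the mu receptor, stood at 0.53 ± 0.22 (adjusted p = 0.11).

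Markers of the 2 pathways can be read side by side. Of 9 measured genes for the direct pathway 6 were higher (66.7%) and 5 above every other region, with a median of 2.25. Of 7 for the indirect pathway 4 were higher (57.1%) and all 4 of these above every other region, with a median of 1.42. Over all genes 1.92% were higher and 0.478% above every other region. Both lists were drawn from genes known for these pathways and with earlier results of these data known, so that the counts describe these markers only. Chrm4, the muscarinic M4 receptor, gave 74.2, 51.6 and 43.6 in striatum against 1.13, 2.76 and 11.9 elsewhere (difference 1.83 ± 0.12, adjusted p = 1.2e-08). Isl1, a transcription factor of the direct pathway, gave 194, 160 and 145 in striatum against a highest value of 183 elsewhere, and it differed from thalamus by -0.02 (log2), with overlapping arrays. Ebf1, Eya1 and Sfxn1 were not called (0.17, 0.11 and 0.44), nor was another Sfxn1 probe set (0.69). Grik3, Ptprm and Plxdc1 of the indirect list were not called either (0.62, -0.07 and -0.29). The median of the indirect list, 1.42, was that of Upb1, a dim gene averaging 39.5 in striatum and 4.35 elsewhere.

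The transcription factors known for the development and upkeep of striatal neurons were a less separate group. Of 20 measured, 13 were higher (65%, beside 1.92% of all genes), 5 were above every other region (0.478% of all genes were) and none was lower, with a median of 1.34. The list was drawn from factors known for striatum and with earlier results of these data known. Those above every region were Rxrg, Rarb, Meis2, Foxp1 and Dlx5. Foxp1, a forkhead factor, gave 2600, 2390 and 2180 in striatum against 246, 468 and 1220, the highest of them in cortex (difference 2.18 ± 0.07, adjusted p = 1.4e-11). Meis2, a homeodomain factor, gave 1730, 1520 and 1310 against 42.4, 284 and 660, the highest in pons and medulla (difference 2.57 ± 0.10, adjusted p = 6.9e-11). Dlx5, a homeodomain factor of GABAergic neurons, gave 199, 188 and 245 against 8.08, 38.4 and 61.7 (difference 2.22 ± 0.15, adjusted p = 2e-08). Bcl11b had one of the larger differences from the mean, 3.31 ± 0.17 (adjusted p = 9.1e-10), with 1640, 1680 and 1590 in striatum and up to 932 in hippocampus. Another Bcl11b probe set was above every other region (3.08, adjusted p = 2.2e-11). Foxp2 (1.63), Six3 (2.02) and Dlx2 (1.28) were called against the mean and lay within 2-fold of thalamus. The 2 other Six3 probe sets, averaging 8.53 and 10.5 in striatum, were not called (0.44 and -0.15). Mef2c was called at 1.15 although cortex was 1.44 higher than striatum. Nr4a1, an immediate early gene, was not called (0.89 ± 0.21), and its 3 striatum values of 283, 837 and 285 were uneven, the 837 from replicate 2.

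**Figure D2:**
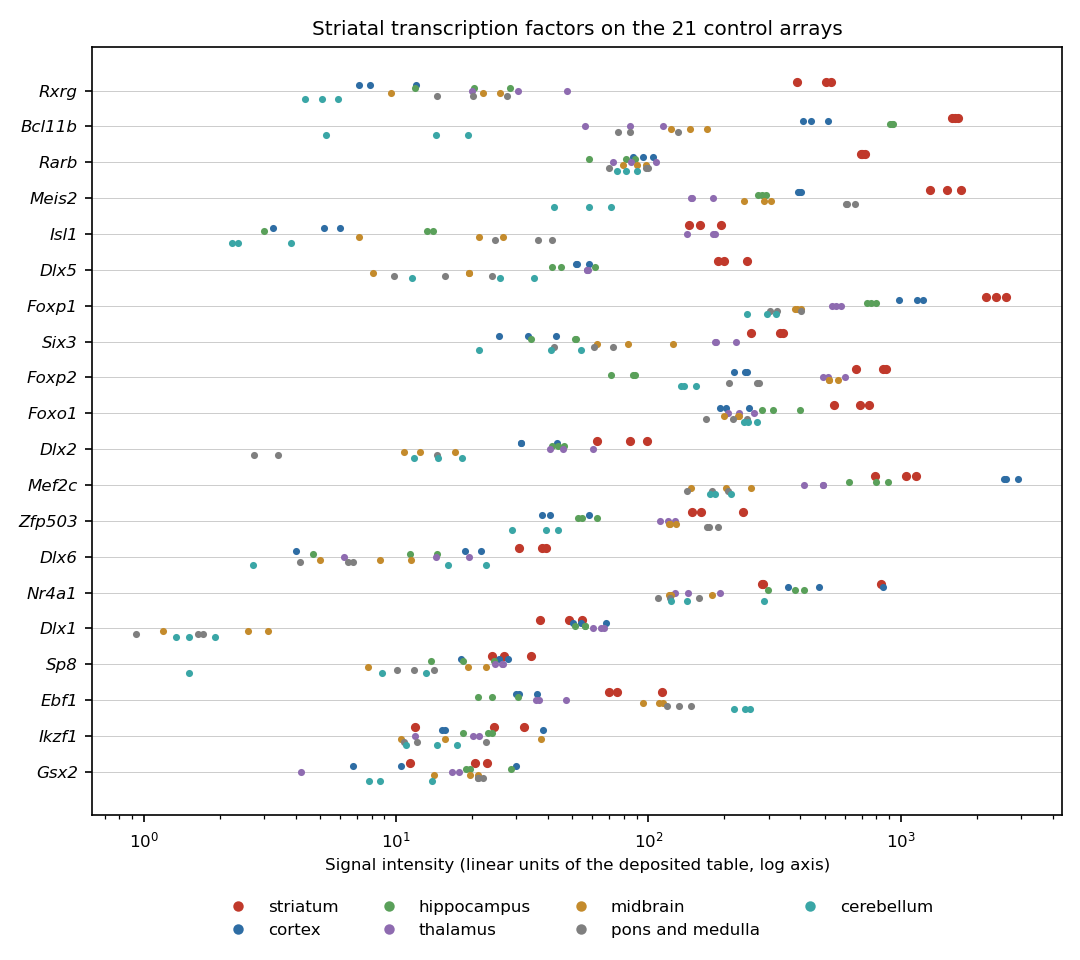
Signal intensity (log axis) of 20 transcription factors known for striatal neurons on the 21 arrays of sham control mice, ordered by the difference of striatum from the mean of the other 6 regions. Each point is 1 array and striatum is in red in the upper row of points for each gene. Rxrg and Rarb stand clear of all other regions, Isl1 lies at 145 to 194 in striatum within reach of thalamus (up to 183), and Mef2c reaches 2910 in cortex against 790 to 1150 in striatum.

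Retinoid signalling gave members on both sides. Retinoic acid acts through heterodimers of the receptors RAR and RXR. Rxrg, the gamma RXR, gave 528, 504 and 387 in striatum against 4.36, 17.3 and 47.5 elsewhere (difference 3.91 ± 0.16, adjusted p = 1.1e-10). Rarb, the beta RAR, gave 722, 693 and 700 against 58.4, 87.6 and 107 (difference 2.82 ± 0.11, adjusted p = 6.6e-11). For both receptors the striatum was set apart from all 18 arrays, and the other 4 receptors measured were not called, with Rara at -0.28, Rarg at 0.29, Rxra at -0.15 and Rxrb at 0.03. Crabp1, a cellular retinoic acid-binding protein, was above every other region, with 44.1, 56.3 and 35 against up to 17.4 (difference 1.58 ± 0.12, adjusted p = 8e-08). On the other side, 2 enzymes that make retinoic acid and 1 that breaks it down were lower. Aldh1a1 gave 289, 193 and 372 in striatum against 267, 1000 and 1520 elsewhere (difference -1.41 ± 0.11, adjusted p = 1.1e-07). Aldh1a2 gave 2.8, 2.53 and 2.75 against 2, 77.8 and 152 (difference -2.02 ± 0.20, adjusted p = 2e-06), and Cyp26b1, a retinoic acid hydroxylase, differed by -1.07 ± 0.15. For both Aldh1a enzymes the lowest array elsewhere came down to the striatal values. Of the 16 genes of the list 3 were higher (18.8%, beside 1.92% of all genes), 3 lower (18.8%, beside 1.03%) and 10 not called.

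Promoters of 3 of these genes are shown because each holds a short sequence tied by name to a pathway described above. They are the 250 bases before and 50 after the start of the gene in RefSeq (GRCm38.p6), written 5′ to 3′ on the strand of the gene, and the capitals mark the match. Gpr6 (chr10:41072241-41072540, minus strand) holds TGACGTCA, the cyclic AMP response element. Tac1 (chr6:7554811-7555110, plus strand) holds TGCGTCA, the form of that element in the Penk enhancer. Rarb (chr14:16575427-16575726, minus strand) holds 2 copies of GTTCA with 6 bases between them, which lie within the retinoic acid response element known from this gene.
Gpr6: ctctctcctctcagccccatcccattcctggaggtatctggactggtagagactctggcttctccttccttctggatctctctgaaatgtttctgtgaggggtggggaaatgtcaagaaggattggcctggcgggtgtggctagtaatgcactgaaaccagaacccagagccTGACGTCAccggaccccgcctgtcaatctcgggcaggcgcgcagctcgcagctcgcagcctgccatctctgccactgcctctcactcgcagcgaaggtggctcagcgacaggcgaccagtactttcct
Tac1: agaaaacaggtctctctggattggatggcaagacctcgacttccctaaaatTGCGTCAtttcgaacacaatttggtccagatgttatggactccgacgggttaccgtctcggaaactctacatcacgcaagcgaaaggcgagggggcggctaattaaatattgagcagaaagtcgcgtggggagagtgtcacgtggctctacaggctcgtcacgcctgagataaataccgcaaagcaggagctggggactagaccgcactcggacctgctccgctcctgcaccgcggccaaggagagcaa
Rarb: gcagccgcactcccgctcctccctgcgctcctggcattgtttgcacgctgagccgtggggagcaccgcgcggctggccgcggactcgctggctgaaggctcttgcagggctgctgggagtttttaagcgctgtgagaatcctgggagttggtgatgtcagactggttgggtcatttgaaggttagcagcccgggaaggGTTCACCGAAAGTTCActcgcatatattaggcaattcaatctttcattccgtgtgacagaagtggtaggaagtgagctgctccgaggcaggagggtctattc
These motifs were chosen after the promoters had been read, and they were searched on both strands. Of 32851 RefSeq promoters of this length 1.79% hold TGACGTCA, 2.12% TGCGTCA and 0.0761% the spaced repeat of GTTCA. Of the 87 genes above every other region 70 had a promoter of this kind, and TGACGTCA was in 1 of them (Gpr6), TGCGTCA in 3 (Arpp21, Erlin1 and Tac1) and the repeat in 1 (Rarb). A match describes the letters in this window and was not tested for use in striatum.

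Among the remaining leading genes several are known outside neurons or are little described. Cd4, the coreceptor of helper T cells, gave 254, 203 and 211 in striatum against 3.44, 6.66 and 19.8 elsewhere (difference 3.31 ± 0.13, adjusted p = 6.6e-11). Ido1, an enzyme of tryptophan breakdown, gave 366, 314 and 330 against 11.2, 20.4 and 32.3 (difference 3.24 ± 0.13, adjusted p = 6.6e-11). Serpina9, a serine protease inhibitor, gave 300, 239 and 240 against 7.76, 18.1 and 25.3 (difference 3.05 ± 0.09, adjusted p = 1.7e-12). For all 3 genes the other 6 regions were near the low end of the scale. Of 9 microglia markers 1 was called higher by its brightest probe set (Cx3cr1, 1.06 ± 0.18), or 11.1% beside 1.92% of all genes. Another Cx3cr1 probe set, averaging 60.2 in striatum and 41.3 elsewhere, was not called (0.51, adjusted p = 0.12). The median of the 9 was 0.63 and all 9 differences were above 0. The summed intensity of these markers was 4070 to 4550 in striatum, against 3360 to 3440 in cortex and 1300 to 1470 in cerebellum. None of the 3 blood markers was called, and their sum was 45.3 to 66.8 in striatum against 33.8 to 198 elsewhere. The part of these cells in the 3 results was not tested.

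Other leading genes code for channels, cytoskeletal and membrane proteins. Scn4b, the beta-4 subunit of sodium channels, gave 2250, 1640 and 2120 in striatum against 68.1, 268 and 797, the highest in pons and medulla (difference 2.78 ± 0.11, adjusted p = 6.6e-11). Actn2, alpha-actinin-2 of dendritic spines, gave 354, 288 and 299 against 17.5, 31.6 and 82.2 (difference 2.72 ± 0.13). Lrrc10b gave 948, 710 and 801 in striatum, and hippocampus, with a mean of 196, was the one other region above 18.9 on average (difference 4.33 ± 0.12, adjusted p = 1.7e-12). Ankrd63 (3.66), Sh3rf2 (3.47), Syndig1l (2.96), Slc35d3 (2.67) and Tmem158 (2.67) completed the group. Of these Slc35d3 varied most between striatum arrays, at 315, 176 and 204, and still lay above the 48.1 that was the highest value elsewhere. Among the genes above every other region outside the leading 25 were Htr1b, the serotonin 1B receptor (2.03 ± 0.11), Adra2c, the alpha-2C adrenergic receptor (1.69 ± 0.11), Gpr83 (2.08 ± 0.10), the potassium channels Kcnk2 (1.91 ± 0.06) and Kcna5 (2.24 ± 0.13), and Mme, the enkephalin-degrading enzyme neprilysin (2.09 ± 0.08). Another Htr1b probe set, averaging 174 in striatum and 109 elsewhere, was not called (0.61).

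Interneurons make up a small share of striatal cells. Lhx8, a transcription factor of cholinergic neurons of the basal forebrain, was above every other region, with 97.8, 55.7 and 98.7 in striatum against 0.906, 2.66 and 30 elsewhere (difference 2.26 ± 0.19, adjusted p = 3.8e-07). The acetylcholine genes did not follow it past the limit: Slc18a3, the vesicular transporter, stood at 0.96 ± 0.12, Slc5a7, the choline transporter, at 0.81 ± 0.10, and Chat at 0.06 ± 0.10. Lhx6, a factor of interneurons that arise in the ganglionic eminence, differed by 1.70 ± 0.20 with cortex 0.15 below striatum. Another Lhx6 probe set, averaging 60.4 in striatum and 37.4 elsewhere, was not called (0.57). Npy was called (1.03 ± 0.09), and Sst was not (0.91 ± 0.10). Pvalb and Calb2 were lower, at -2.05 and -2.38, with means in cerebellum 3.89 and 4.20 above striatum. Among genes of GABA synthesis and transport Slc32a1, the vesicular GABA transporter, was called (1.09 ± 0.09), Gad2 stood at 0.91 ± 0.13 and Gad1 at 0.38 ± 0.06. A second Gad2 probe set, averaging 433 in striatum, was called higher at 1.25 (adjusted p = 0.00032). The 3 other Slc32a1 probe sets, averaging at most 9.18 in striatum, were not called (-0.02 to 0.19).

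Genes lower in striatum were fewer. Of the 10 with the most negative differences among genes whose 3 striatum arrays lay below all 18 others, 4 were below every other region. Chst8, a sulfotransferase, gave 4.26, 5.82 and 25.8 in striatum, against 49.4, 118 and 156 as the lowest, median and highest value elsewhere (difference -2.24 ± 0.17, adjusted p = 7.4e-08). Hapln4, a link protein of perineuronal nets, gave 65.8, 81.6 and 108 against 191, 354 and 512 (difference -1.79 ± 0.09, adjusted p = 8.4e-10). Nrn1, which encodes the growth factor neuritin, gave 330, 494 and 495 against 1090, 1220 and 2190 (difference -1.63 ± 0.10, adjusted p = 6.9e-09). Igfbp2, an insulin-like growth factor-binding protein, gave 68.2, 94.4 and 53.6 against 136, 360 and 669 (difference -1.96 ± 0.17, adjusted p = 3e-07). These 4 genes passed both limits against each of the other regions alone. The other 6 likewise lay below all 18 other arrays, but did not pass the limits against every region. Among them Neurod1 (-2.06) reached 2930 in cerebellum, and Sncg (-1.78), gamma-synuclein, reached 425 in pons and medulla. Mreg (-1.85), Cacna1g (-1.66), Car10 (-1.62) and Adcy8 (-1.58) completed them. Such a separation of arrays, which the naming rule required, held for 621 probe sets (1.38%). Outside it lay genes with larger negative differences, Calb2 (-2.38) and Slc17a6 (-2.35) among them, each overlapping other regions.

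Marker lists of other regions and cell types were read for what the dissected striatum also held. Of 13 thalamus markers 7 were lower and none higher (median -1.14), and of 15 cerebellum markers 9 were lower and none higher (median -1.14), beside 1.03% of all genes. The mean of the other regions includes thalamus and cerebellum, so these counts do not show striatum below each remaining region. The summed cerebellum markers were 2810 to 3040 in striatum, against 2240 to 2340 in cortex and 2320 to 2500 in hippocampus. They were 2670 to 5410 in thalamus, midbrain, and pons and medulla, and 31600 to 35300 in cerebellum. Cerebellar Gabra6 gave 14.8, 28.3 and 23.7 in striatum, Pcp2 11.6, 28.9 and 27.3, and Cbln3 7.1, 1.24 and 6.66, against up to 3410, 4490 and 3840 elsewhere. The summed thalamus markers were 1650, 1640 and 2410 on striatum arrays 1, 2 and 3, against 14300 to 16100 in thalamus. They were 1810 to 1900 in cortex, 1980 to 2380 in hippocampus and 4630 to 9450 in midbrain, pons and medulla, and cerebellum. Array 3 was the highest of the 3 for Slc17a6, the vesicular glutamate transporter of thalamic neurons, at 201 against 56.6 and 40.2, and for Calb2, at 273 against 74.2 and 54.1. The summed cortical projection neuron markers were 1810, 2190 and 2070, against 6330 to 6550 in cortex. Of 10 such markers 2 were higher than the mean of the other regions (20%, beside 1.92% of all genes). These were Lamp5 (1.28) and Tbr1 (1.06), each below cortex (by 1.14 and 1.95). Among glia, none of 11 oligodendrocyte markers was called (median 0.09). Of 10 astrocyte genes Aqp4 (-1), Gfap (-1.13) and Gjb6 (-1.23) were lower (30%, beside 1.03% of all genes; median -0.37), while Slc1a2 (0.25) and Slc1a3 (0.35) stood above 0. Of 9 subventricular zone and neuroblast markers 2 were higher (22.2%, beside 1.92% of all genes; median 0.78). Their sum was 942 to 1290 in striatum, against up to 917 elsewhere. Of 6 pallidum and septum markers 2 were higher (33.3%) and 1 lower (16.7%). The part of these cells in the results above was not tested.

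**Figure D3:**
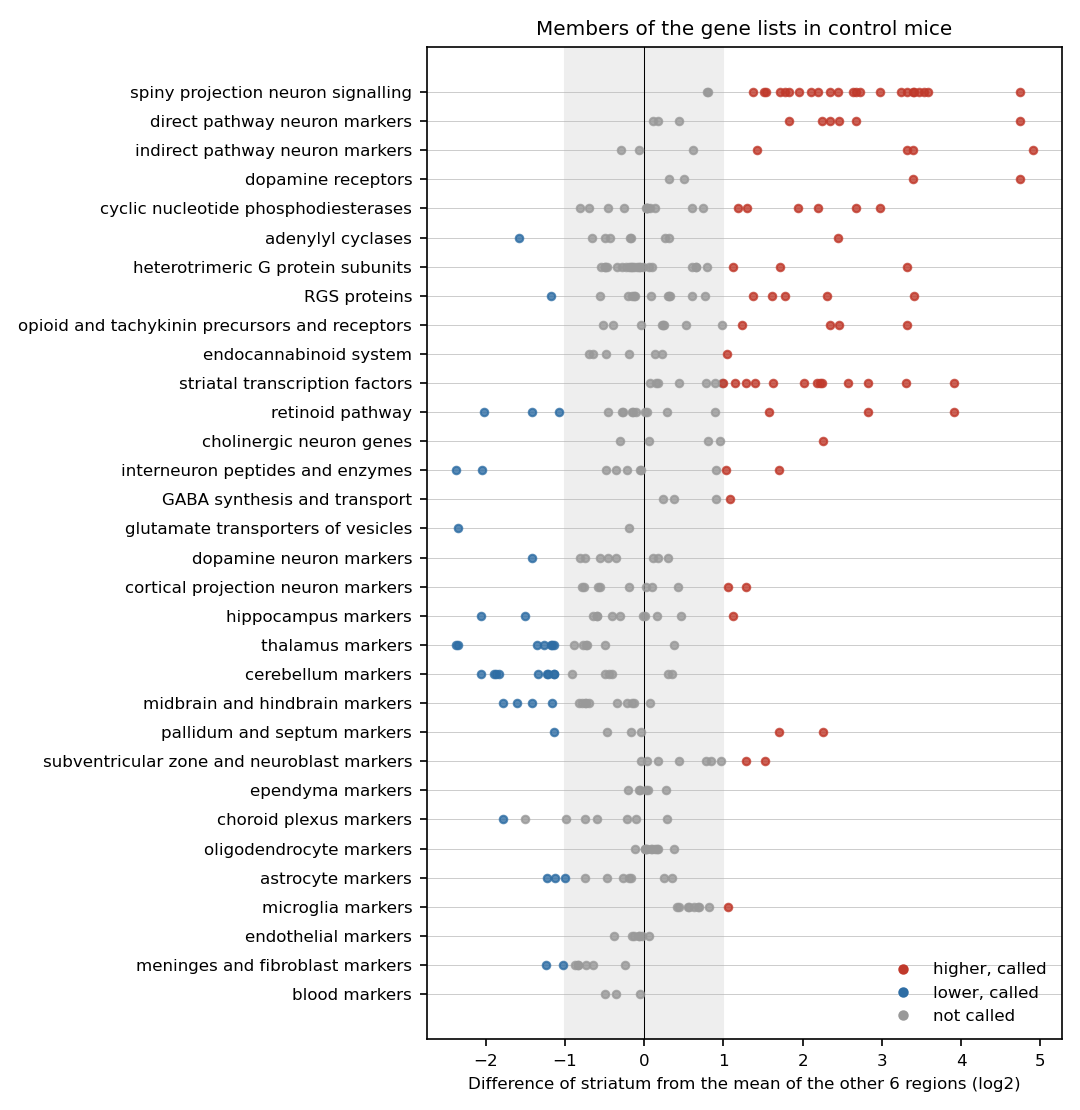
Difference of striatum from the mean of the other 6 regions (log2) for every measured member of 32 gene lists, in sham control mice. Each point is 1 gene, red where called higher, blue where called lower and grey where not called, and the grey band spans differences under 2-fold. The spiny projection neuron list lies almost wholly on the right (23 of 25 called), and the thalamus and cerebellum lists lie mostly on the left.

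Against single regions, the count of called probe sets was smallest for cortex and largest for cerebellum. Higher in striatum than in cortex were 561 probe sets (1.25%) and lower 456 (1.01%). For hippocampus the numbers were 624 (1.39%) and 536 (1.19%), for thalamus 992 (2.2%) and 694 (1.54%), for midbrain 1197 (2.66%) and 704 (1.56%), for pons and medulla 1431 (3.18%) and 942 (2.09%), and for cerebellum 1798 (3.99%) and 1434 (3.18%). The 6 comparisons share the 3 striatum arrays. Of the 794 probe sets higher than the mean, 347 had cortex and 223 had hippocampus as the next-highest region. In 155 some other region was at or above striatum: cortex in 89, hippocampus in 64, cerebellum in 21, thalamus in 8, pons and medulla in 2 and midbrain in 1. The mean of 6 regions therefore also called transcripts that striatum shared with another region, most often cortex or hippocampus. Egr1, an immediate early gene, is one of them: it gave 1820, 2850 and 2220 in striatum and averaged 2440 in cortex, so that its difference of 1.75 ± 0.13 (adjusted p = 4.8e-08) came with a difference of -0.08 ± 0.16 from cortex. Among the 198 probe sets above every other region, cortex was next for 79 and hippocampus for 41.

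**Figure D4:**
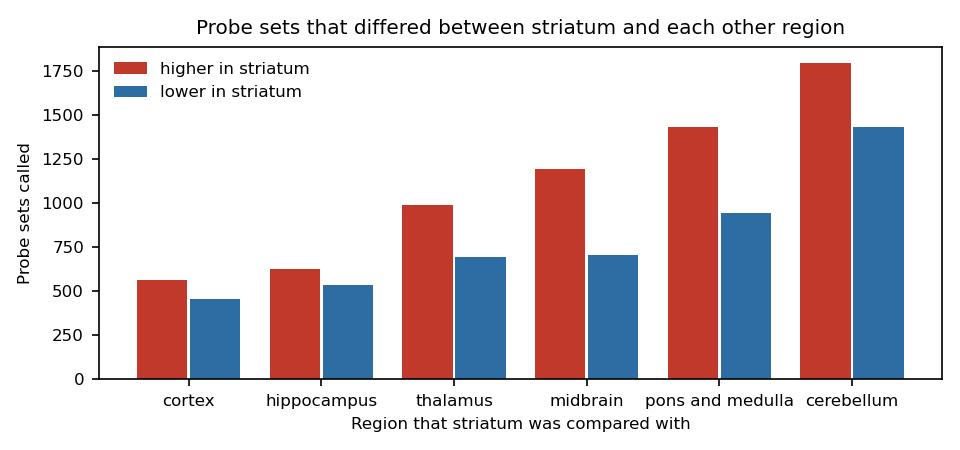
Number of probe sets called higher (red) or lower (blue) in striatum than in each other region of sham control mice, by an adjusted p under 0.05 and at least 2-fold. The bars for cerebellum (1798 and 1434) are about 3 times those for cortex (561 and 456).

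The 7 groups of mice exposed to hypoxia gave 21 further striata from mice that the calls above did not use. The same test called 814 probe sets higher at H1 (1.81%), 774 at H3 (1.72%), 770 at R1 (1.71%), 771 at R3 (1.71%), 744 at R6 (1.65%), 769 at R12 (1.71%) and 776 at R24 (1.72%). Above every other region were 205 at H1 (0.455%), 196 at H3 (0.435%), 176 at R1 (0.391%), 201 at R3 (0.446%), 180 at R6 (0.4%), 194 at R12 (0.431%) and 216 at R24 (0.48%). Of the 198 found above every other region in sham mice, 157 to 179 were found so again at each single time, 111 at all 7 times and all but 7 at one time at least. Of the 794 higher than the mean, 667 to 701 were called again at each time, 555 at all 7 times, and 790 to 794 kept a positive difference. All 25 leading genes were above every other region at all 7 times, and the 10 lowest genes were called lower at all 7. Drd1 differed by 4.75 at 0hr and by 4.65 to 5.02 later, Drd2 by 3.39 and 3.28 to 3.49, Penk by 3.32 and 3.25 to 3.56, and Rarb by 2.82 and 2.69 to 2.94. Among the 87 genes above every other region 53 were so at all 7 times, and Chrm4 and Rgs20 at none of them. Chrm4 differed by 1.83 at 0hr and by 0.55 (H1), 0.80 (H3), 0.77 (R1), 1.02 (R3), 1.17 (R6), 1.09 (R12) and 1.21 (R24), while its change from 0hr did not pass the test at any time (adjusted p 0.10 to 0.90). Rgs20 stayed at 1.80 to 2.08.

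**Figure D5:**
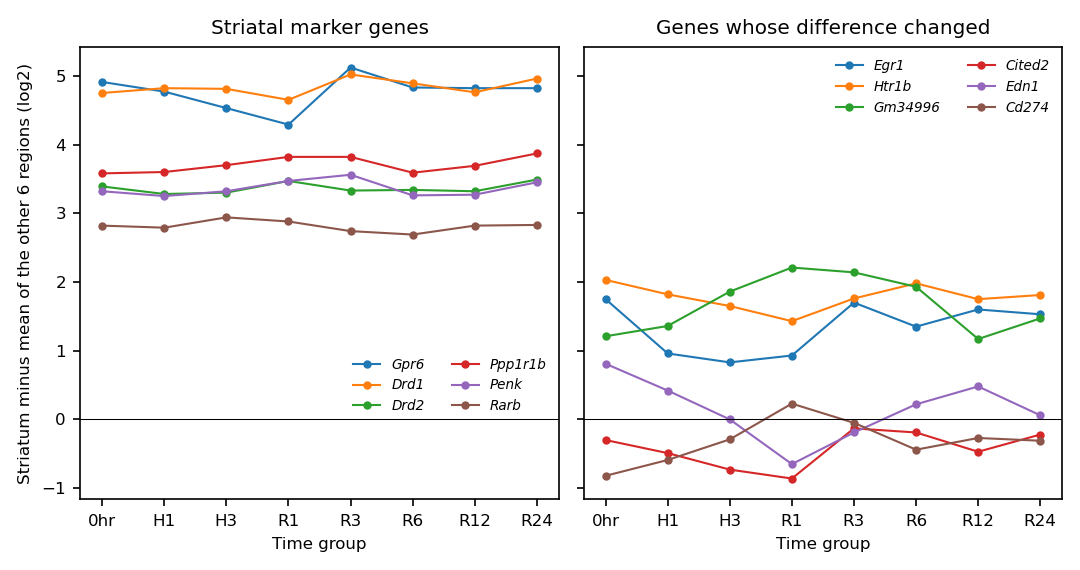
Difference of striatum from the mean of the other 6 regions (log2) in sham control mice (0hr) and the 7 groups exposed to hypoxia, each point from 3 mice. On the left, 6 striatal genes keep their differences, with Rarb lowest at 2.69 to 2.94 and Gpr6 moving between 4.29 and 5.12, and on the right are 6 of the genes whose difference changed at H3 or R1, such as Egr1 (1.75 at 0hr and 0.83 at H3).

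Whether a striatal difference changed after hypoxia was tested directly as the difference at each time minus that at 0hr, over the arrays of all 8 groups. By an adjusted p under 0.05, 2 probe sets passed at H1 (0.00444%), 5 at H3 (0.0111%), 26 at R1 (0.0577%), 1 at R3 (0.00222%) and 2 at R12 (0.00444%). At R6 and R24 limma called 0, with 2356 and 3000 at an unadjusted p under 0.05. Of the 198 probe sets above every other region 2 passed, both at R1, and none of the 25 leading genes passed at any time. Without control replicate 2 the numbers at H3 and R1 were 3 and 5, and without control replicate 3 that at H3 was 12. Htr1b, by its brightest probe set one of the genes above every other region in sham mice, gave 515, 709 and 398 in striatum at 0hr. Against 76, 121 and 170 elsewhere this was a difference of 2.03 ± 0.11. Its difference was 1.43 at R1, a change of -0.60 ± 0.12 (adjusted p = 0.0075) that did not pass without control replicate 2 (adjusted p = 0.27).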

How the data were processed

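RNA of 7 brain regions was measured on 1 array per region and mouse, and the 21 arrays of the sham group were analysed here. In the deposited table each array has a column of linear signal intensity over 45101 probe sets, of which 64 array controls were left out. On every array the mean without the highest and lowest 2% is 125, medians are 40 to 48.9 on the sham arrays, and 24.4 to 30.2% of their values are under 16. The authors' methods describe GCRMA with division by the sham mean of each region, which these intensity values do not show, and the submitters' processing notes name GCOS 1.3. Detection calls were not used here, so intensities near or under 16 carry little information on order, and the number of arrays limits the precision.

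Values were taken as log2(intensity + 16). limma 3.58.1 (R 4.3.3) was fitted with lmFit, contrasts.fit and eBayes to 7 region means with the replicate number as a fixed block, which leaves 12 residual degrees of freedom, and striatum was contrasted with the mean of the other regions and with each of them. The labels do not say that a number is a mouse. Each of the 7 other groups was fitted alike, and changes from 0hr were interaction contrasts over all arrays with each group and replicate number as a block. Of the probe sets tested 34945 name 1 gene, 932 several and 9160 none by GEO's platform annotation, with symbols updated by Entrez ID, and for 18193 genes the brightest such probe set on average over all arrays stood for the gene. The members and the 32 gene lists (326 genes, 302 measured) were chosen with earlier results of these data known. Genes were named as list members, as the 25 largest and 10 most negative called differences with no overlap of arrays, as further genes past every region, and as the 10 largest changes at H3 and R1. The procedure was tested on simulated data. Alternatives were other pseudocounts, scalings, thresholds, eBayes options, blocks, regions in the mean, and single arrays or replicate numbers left out.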

Additional observations from a re-analysis of the deposited data

Results flagged for a closer look

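The difference of striatum from the other 6 regions changed after hypoxia in 12 named genes, each by the test of the change itself (limma, adjusted over all probe sets), given as the difference at the later time minus that at 0hr. Egr1, an immediate early gene, changed by -0.91 ± 0.15 at H3 (adjusted p = 7e-04) and by -0.81 ± 0.15 at R1 (adjusted p = 0.0048). Its difference was 1.75 at 0hr, 0.83 at H3, 0.93 at R1 and 1.70 at R3. Also at H3, Ankrd9 changed by -1.05 (adjusted p = 0.047) and B230308N11Rik by 0.45 (adjusted p = 0.021). At R1 the changes below 0 were Edn1, the endothelin-1 precursor (-1.47, adjusted p = 0.039), Itga6, integrin alpha-6 (-0.66, adjusted p = 0.039), Htr1b (-0.60, adjusted p = 0.0075), Cited2, a CBP/p300 cofactor (-0.56, adjusted p = 0.0025), Fem1c (-0.55, adjusted p = 0.029) and Ell2 (-0.53, adjusted p = 0.036). The changes above 0 at R1 were Cd274, the ligand PD-L1 (1.05, adjusted p = 0.039), Gm34996 (1.00, adjusted p = 1.5e-05) and Fam117a (0.73, adjusted p = 0.036). Of the 12, Egr1, Htr1b and Gm34996 were higher in striatum than in the mean of the other regions in sham mice. Edn1 and Cd274 were dim, with 40, 28.3 and 47.2 for Edn1 and 2.55, 1.82 and 3.26 for Cd274 in sham striatum. Gm34996 and Cited2 alone passed in each of the 5 alternatives run for these changes (no replicate block, a pseudocount of 32 and each control replicate left out). Cd274 passed in 0 of the 5 (adjusted p up to 0.12), Ankrd9 and Edn1 in 1, Ell2 in 2, B230308N11Rik, Itga6 and Fem1c in 3, and Egr1, Htr1b and Fam117a in 4. Without control replicate 2 the adjusted p of Egr1 was 0.073 at H3 and 0.15 at R1, and that of Htr1b was 0.27 at R1.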

How the results depend on the processing

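The leading 25 genes and the 10 lowest kept their calls in all 385 checks of other pseudocounts, scalings, blocks and left-out arrays, while of 21 other probe sets of these 35 genes 16 gave the same call and 5, of Arpp21, Rgs9 and Car10, did not. Of 328 named genes 13 lost their call with a pseudocount of 32, 2 with arrays centred on their median and 2 to 7 with a replicate or striatum array left out, and 21 gained one with a pseudocount of 1. Of 364 other probe sets of named genes 303 gave the same call, 49 lost it, 11 gained one and 1, of Adcy5, had the opposite sign (-0.36).

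Counts moved more. With a pseudocount of 1, 1337 probe sets were higher, 849 lower and 46 below every other region, and with 32, 201 were lower and 6 below every region. With probe sets brighter than the median alone 129 were above every region, where fewer were tested. A threshold of 1.5-fold gave 1959 higher, 1420 lower, 451 above every region and 95 below every region, and one of 4-fold gave 143, 11, 36 and 0. Against cortex and hippocampus alone 497 were higher, 382 of them among the 794. Leaving out a replicate number, or one striatum array, gave 789 to 848 higher, 313 to 389 lower, 178 to 223 above every region and 7 to 20 below every region, the 20 without the striatum array of replicate 3. For changes after hypoxia, leaving out each control replicate gave 3 to 12 probe sets at H3, 5 to 27 at R1 and 7 to 40 over the other 5 times, with 3 and 5 without replicate 2 and 12 and 40 without replicate 3, and a pseudocount of 32 gave 11 over those 5 times beside 5. The causes were not tested. Centring or quantile normalization moved the median of all genes to -0.061 and -0.039.

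With the replicate number left out (no replicate block), 793, 320, 198 and 10 probe sets were higher, lower, above every region and below every region, beside 794, 322, 198 and 10, with 1 of the 794 and 2 of the 322 lost and no call among the 328 named genes changed, while 3 of 13 changes after hypoxia lost theirs. As a random block it gave the same 4 numbers, with a consensus correlation of 0.0398, and 3 differences within numbers gave 788 higher and 311 lower. Same-numbered arrays of different regions deviated together in part (r from -0.13 to 0.30, median 0.15, over 63 pairs, 42 of them over 0.1). Differently numbered ones had a median of -0.06, which is no separate result. Deviations were taken from the mean of each region, so shared deviations of same-numbered arrays bring negative values for the others. The pairing is a hint from the data and not from the labels, and what a shared number marks was not tested. Without the block no count at another time, or of changes at H3 and R1, moved by over 1.5 times. Of the 13 changes at H3 and R1 5, 10 and 6 lost their call without control replicates 1, 2 and 3.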
